A study of Canis lupus familiaris with 45 samples.

Results

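The comparison asked what free feeding changed in canine subcutaneous fat over its first 12 weeks, taking weeks 4, 8 and 12 together. It used 27 of the study's 45 arrays, chosen by their labelled feeding group and week. The 15 ad libitum arrays came from 5 dogs and the 12 control arrays from 4 dogs, each dog measured once at each of the 3 weeks. All 9 dogs were intact female beagles, 4 years old, assigned to their group at random. They ate the same commercial food, Purina Pro Plan Performance Formula, and fat was taken after an overnight fast. Control dogs (dogs 1, 3, 4 and 9) received enough to hold their starting body weight, and ad libitum dogs (dogs 2, 5, 6, 7 and 8) ate freely after the week 0 sample. RNA of the whole tissue was hybridised to Affymetrix canine arrays, on which several probe sets can report 1 gene. The values are log2 GCRMA expression, and a value below 4 is treated here as near background. In such bulk tissue, fewer cells of a type and less RNA per cell cannot be told apart. The number of dogs limits the precision of every value.

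White fat stores surplus energy as triglyceride, which adipocytes either assemble from circulating fatty acids or, to a varying degree, make from glucose and acetate. In the fasted state it releases fatty acids under the control of hormones, with insulin as the main brake. Adipocytes also secrete proteins, among them leptin, whose level follows fat mass, and zinc-alpha-2-glycoprotein, a lipid-mobilising factor. A growing fat depot also remodels its extracellular matrix and basement membranes.

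The arrays carried the genes that define fat. ADIPOQ, the adipocyte hormone adiponectin, had dog means of 15.60 ± 0.16 (SD, n = 4) in controls and 15.47 ± 0.14 (SD, n = 5) in ad libitum dogs. The mean of the 16 tested adipocyte markers was 12.05 ± 0.20 (SD, n = 4) in controls and 11.99 ± 0.27 (SD, n = 5) in ad libitum dogs. A check of each array against the profile of each dog matched 43 of the 45 arrays to their labelled dog. The other 2 are both of week 8. The array labelled dog 5, ad libitum, correlated best with control dog 9 (r = 0.909, against -0.245 with its own dog). The array labelled dog 9, control, correlated best with ad libitum dog 5 (r = 0.799, against -0.156 with its own dog). Together they are called here the 2 mismatched week-8 arrays. They stay in the comparison under their labels, and results are also given without them.

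Over weeks 4 to 12, 100 of 21758 tested probe sets (0.46%) differed between the feeding groups at an adjusted p under 0.05 by limma. Of these, 58 (0.267%) were higher and 42 (0.193%) lower in ad libitum dogs, and 2295 (10.5%) had an unadjusted p under 0.05. The probe sets with a single gene symbol covered 52 genes, 32 higher and 20 lower. Another 30 probe sets had no symbol and 2 had several. The differences quoted are fitted values, ad libitum minus control, with week and the labelled batch as terms and the dog as block. The median over all tested probe sets was -0.00. The median was 1.01 for the probe sets called higher and -1.04 for those called lower, and 53 of the 100 differed by more than 1 log2 unit. Without the 2 mismatched week-8 arrays, 808 probe sets (3.71%) passed, 379 (1.74%) higher and 429 (1.97%) lower, and all 100 were among them with the same sign.

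Of the 58 probe sets called higher, 1 of the secreted protein AZGP1 had the largest difference. AZGP1, zinc-alpha-2-glycoprotein, ran from 2.31 to 2.47 on the 12 control arrays, with a median of 2.35. On the ad libitum arrays its lowest value was 2.35, its median 7.70 and its highest 10.17. Every control array was thus near background, and so was a single ad libitum array, the week-8 array labelled dog 5; the other ad libitum arrays lay at 6.72 or above. The week-8 array labelled dog 9, whose profile matched ad libitum dog 5, was at background too, at 2.47. The fitted difference was 5.07 (SE 0.538, adjusted p = 9.26e-05). Because controls were at background, its exact size is not known. At week 0 no dog of either group was above 2.37. At week 24 the ad libitum dogs were again between 2.32 and 2.47, while control dog 4 was at 5.71, on an array whose epithelium and muscle values are given below. A second AZGP1 probe set, with a mean of 3.79, differed by 0.64 and did not pass (adjusted p = 0.555). Without the 2 mismatched week-8 arrays, the first probe set differed by 5.51 (SE 0.349, adjusted p = 2.73e-08). Both omitted arrays were at background, so that fit left out the single low ad libitum value, whichever of the 2 came from dog 5. Leaving out week 4 or week 12 ended the AZGP1 call, with a highest adjusted p of 0.0921, and each single dog could be left out without ending it.

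GPLD1, a secreted phospholipase that releases proteins from their glycolipid anchors, was also higher in ad libitum dogs. Its control arrays ran from 4.74 to 8.87 with a median of 5.85, and its ad libitum arrays from 6.09 to 10.32 with a median of 8.39. The highest control array was the week-8 array labelled dog 9 and the lowest ad libitum array the week-8 array labelled dog 5. The difference was 2.25 (SE 0.336, 4.75-fold, adjusted p = 0.00801), and a second of its 3 probe sets also passed at 1.73.

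LEP, leptin, the hormone that reports fat mass to the brain, ran from 7.63 to 12.57 in controls with a median of 10.06, and from 9.95 to 13.36 in ad libitum dogs with a median of 12.23. Array values overlapped: the highest control value was again the week-8 array labelled dog 9. Control dog 3 had the lowest dog mean, 8.05. The LEP difference was 2.06 (SE 0.423, 4.17-fold, adjusted p = 0.0297). Dog means were 9.86 ± 1.22 (SD, n = 4) in controls and 12.01 ± 0.63 (SD, n = 5) in ad libitum dogs, and did not overlap. At week 24 the LEP group means were 9.78 and 12.49, so the distance was still present there, in contrast to AZGP1.

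RBP4, the plasma carrier of retinol, was higher by 0.65 (SE 0.138, adjusted p = 0.0325) at the probe set that passed, while its brightest probe set differed by 0.25 and did not pass (adjusted p = 0.118). C8G, the lipocalin chain of a complement component, was higher by 1.37 (SE 0.297, adjusted p = 0.0386), and its dog means overlapped. ADIPOQ differed by -0.17 (adjusted p = 0.616). Of 15 tested adipokines and secreted fat proteins, 2 passed at their brightest probe set, LEP and AZGP1, both higher, and 10 had a positive difference.

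**Figure D1:**
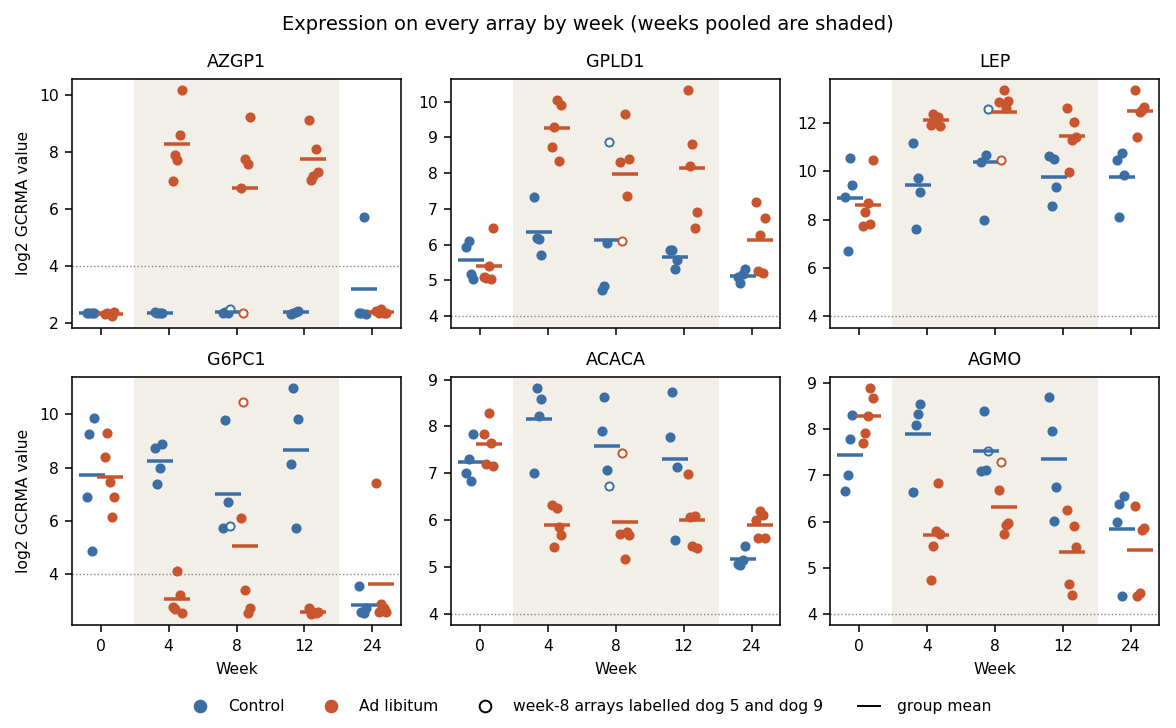
Log2 GCRMA values of 6 genes on all 45 arrays by week, control dogs in blue and ad libitum dogs in orange. Horizontal dashes are group means, the dotted line marks log2 4, the pooled weeks are shaded, and open circles are the 2 mismatched week-8 arrays; AZGP1 and GPLD1 stand higher and G6PC1, ACACA and AGMO lower in ad libitum dogs within the shaded weeks.

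On the lower side, the fitted difference of greatest size among the 42 probe sets was that of G6PC1. G6PC1, the catalytic subunit of glucose-6-phosphatase, which releases free glucose and is best known from liver, ran from 5.72 to 10.98 on the control arrays with a median of 8.06. On the ad libitum arrays it ran from 2.50 to 10.45 with a median of 2.72. Most ad libitum arrays were therefore below 4, and the value of 10.45 was the week-8 array labelled dog 5. The fitted difference was -4.23 (SE 0.845, adjusted p = 0.0250), and without the 2 mismatched week-8 arrays it was -5.22 (SE 0.604, adjusted p = 1.78e-04). The size is not exact, since the lower group is near background. G6PC1 was above background in both groups at week 0, where the group means were 7.72 in controls and 7.64 in ad libitum dogs, and the fitted difference was -0.66 (SE 1.30). At week 24 the G6PC1 group means were below 4, at 2.86 in controls and 3.64 in ad libitum dogs. Ad libitum dog 2 was then at 7.44 and the other ad libitum dogs were between 2.57 and 2.90.

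ACACA, acetyl-CoA carboxylase, makes the malonyl-CoA from which fatty acids are built. It ran from 5.58 to 8.82 in controls with a median of 7.85, and from 5.18 to 7.44 in ad libitum dogs with a median of 5.75. The value of 7.44 was the week-8 array labelled dog 5. The difference at this probe set was -1.79 (SE 0.345, adjusted p = 0.0212), or 3.46-fold lower. A second ACACA probe set passed at -1.25 (adjusted p = 0.0470). The brightest of the 4, with a mean of 11.74, differed by -0.77 and did not pass (adjusted p = 0.207). The probe sets of ACACA thus had the same sign and unequal sizes.

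AGMO, which cleaves ether lipids, was lower at all 3 of its probe sets. Its control arrays ran from 6.00 to 8.70 with a median of 7.73, and its ad libitum arrays from 4.42 to 7.28 with a median of 5.79. The difference was -1.93 (SE 0.346, 3.80-fold lower, adjusted p = 0.0158). The ad libitum value of 7.28 was the week-8 array labelled dog 5. Control arrays at 6.00, 6.63, 6.75, 7.10 and 7.11 lay below it, the lowest being dog 4 at week 12. The AGMO dog means did not overlap. PDK4, the kinase that shuts off pyruvate dehydrogenase during fasting, was lower, at -1.04 (SE 0.192, 2.06-fold, adjusted p = 0.0171). PFKFB1, which sets the level of a fructose bisphosphate that drives glycolysis, was lower, at -1.03 (SE 0.197, 2.05-fold, adjusted p = 0.0212) and also at its second probe set.

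PPARGC1A, a coactivator of mitochondrial and gluconeogenic genes, ran from 3.66 to 8.56 in controls and from 3.21 to 5.89 in ad libitum dogs. The value of 5.89 was the week-8 array labelled dog 5. The PPARGC1A difference was -1.66 (SE 0.340, 3.17-fold lower, adjusted p = 0.0294). PPARGC1A was the single member called among 11 tested adipocyte transcription factors. PPARG, the master regulator of fat cells, differed by 0.16 (adjusted p = 0.908). PSAT1, an enzyme of serine synthesis, was lower, at -1.40 (SE 0.290, adjusted p = 0.0302). AASS, which starts lysine breakdown, was lower, at -1.24 (SE 0.253, adjusted p = 0.0294), and its ad libitum arrays ran from 2.82 to 3.06, all near background, so the size is not exact.

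Of the enzymes most used to describe fat synthesis, FASN, fatty acid synthase, had dog means of 13.60 ± 0.20 (SD, n = 4) in controls and 13.02 ± 0.56 (SD, n = 5) in ad libitum dogs. Its difference was -0.56 (SE 0.258, adjusted p = 0.439), and its other 3 probe sets lay between -0.996 and -0.788 without passing. SCD, which desaturates fatty acids, differed by 0.17 at its brightest probe set (adjusted p = 0.501) and by 1.08 and 1.09 at the other 2, none past the threshold. LPL, which frees fatty acids from circulating triglyceride, differed by -0.18 (adjusted p = 0.872).

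Several genes of the matrix were among those called higher. MATN2, the matrix protein matrilin-2, was higher at all 3 probe sets. At the one with the smallest p it ran from 5.97 to 8.76 in controls and from 7.38 to 10.46 in ad libitum dogs, a difference of 1.40 (SE 0.265, 2.63-fold, adjusted p = 0.0212). FMOD, the collagen-binding proteoglycan fibromodulin, was higher by 1.60 (SE 0.310, adjusted p = 0.0212), from a control dog mean of 3.92 ± 0.25 (SD, n = 4), which is near background. COL4A1, a basement-membrane collagen chain, was higher by 0.75 (SE 0.139, 1.68-fold, adjusted p = 0.0174) with dog means that did not overlap, and passed at 2 of 3 probe sets. SVEP1, a large extracellular adhesion protein that was named after its values were seen, was higher by 1.01 (SE 0.206) at the probe set with the smallest p, of 3 past the threshold. Within the list of 38 tested matrix genes, 29 had a positive difference and the median was 0.26, against -0.01 over all 8811 genes. The matrix median was 0.27 without the 2 mismatched week-8 arrays. It was 0.14 without the arrays with a mean above 7 over skeletal muscle genes. No matrix gene passed at its brightest probe set, and COL4A1 and FMOD passed at others.

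Proteins of the plasma membrane appeared on both sides. SLC46A2, a solute carrier, ran from 4.76 to 7.49 in controls with a median of 6.54, and from 6.79 to 9.31 in ad libitum dogs with a median of 7.88. Its difference was 1.44 (SE 0.210, 2.72-fold, adjusted p = 0.00801). GABBR2, a subunit of the GABA-B receptor, was higher by 2.54 (SE 0.446, adjusted p = 0.0153), TRPV2, a cation channel, by 1.43 (SE 0.253, adjusted p = 0.0158) and TMEM132C by 2.00 (SE 0.402, adjusted p = 0.0256). CLDN10, a claudin of tight junctions, was higher by 1.84 (SE 0.315, adjusted p = 0.0151). ANO3, of the anoctamin family, was lower, at -2.03 (SE 0.418, adjusted p = 0.0299). Of these, GABBR2 had overlapping dog means. LOC489231, a locus without a named function here, was higher by 2.31 (SE 0.429, adjusted p = 0.0179).

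RMND5A, part of a ubiquitin ligase complex, was lower, at -0.83 (SE 0.161), C11H9orf72 at -0.83 (SE 0.158) and RALGAPA2, a subunit of a Ral GTPase-activating complex, at -0.87 (SE 0.181). VEGFA, the main growth factor of blood vessels, was lower, at -0.71 (SE 0.157, adjusted p = 0.0414), and its dog means overlapped. Several called genes outside the naming rule were picked after their values were seen. They include EPHX1, a detoxifying epoxide hydrolase, at 1.22 (SE 0.201) with 3 probe sets past the threshold. BLVRB and BLVRA, both biliverdin reductases, were higher by 1.19 (SE 0.196) and 0.51 (SE 0.0935), and ABCB6, a porphyrin transporter, by 0.83 (SE 0.146). GFPT1, the entry enzyme of the hexosamine pathway, was lower, at -0.69 (SE 0.145). Of the 27 genes that the naming rule chose and that passed, 14 were higher and 13 lower.

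**Figure D2:**
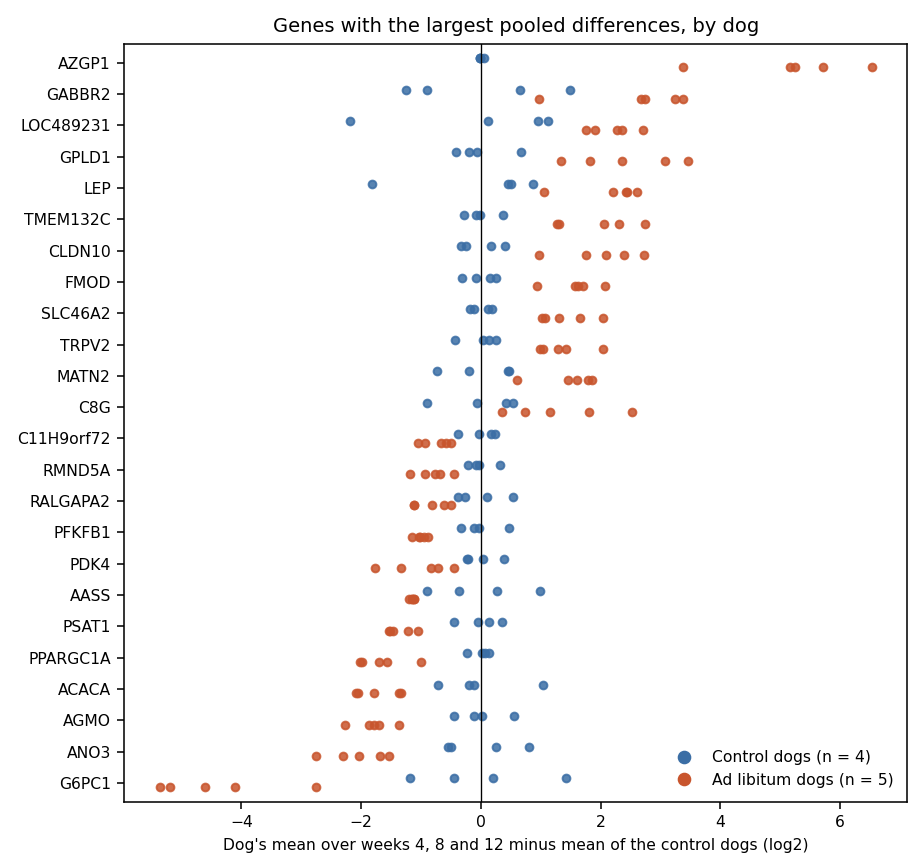
Mean of each dog over weeks 4, 8 and 12 minus the mean of the control dogs, in log2 units, for the 12 genes highest and the 12 lowest by fitted difference; blue points are the 4 control dogs and orange points the 5 ad libitum dogs. The groups are apart for most genes, AZGP1 has nearly identical control dogs, and GABBR2 and C8G overlap.

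The spread over dogs, weeks and batches was read from the same 27 arrays that chose the genes. Of the 100 probe sets, 81 had dog means that did not overlap between the groups, against 951 of all 21758 tested (4.37%). All 100 had the same sign at weeks 4, 8 and 12 (20.5% of all tested), and 96 had the same sign within each of the 5 batches (6.7% of all tested). These shares describe the selection and are not support for it. The within-batch values are differences of raw means with no week term, and the 2 groups of a batch can come from unlike weeks. Batch 2 holds 1 ad libitum array. AZGP1 differed by 5.76, 4.76, 4.43, 5.26 and 5.72 within batches 1 to 5. LEP differed by 2.47, 1.21, 1.38, 3.80 and 0.17 within the same batches, and the single control array of batch 5 is the mismatched week-8 array labelled dog 9, at 12.57. At week 4 no batch held both groups, so the week 4 values rest on batch terms estimated from the other weeks.

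By week, the 32 genes higher in ad libitum dogs had a median difference of 1.33 at week 4, 1.11 at week 8 and 0.71 at week 12. The 20 lower genes had medians of -1.15, -0.64 and -0.87. Week 8 holds the 2 arrays that match another dog. No probe set passed the test of a difference between the weeks (0%; 5060, or 23.3%, had an unadjusted p under 0.05), so no gene can be said to respond more at a given week. That test is not stable: it passed 3989 probe sets without control dog 1 and 1814 without ad libitum dog 7. Without the arrays with a mean above 7 over the skeletal muscle genes, it passed 496.

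Before free feeding began, no probe set passed the threshold between the groups (0%), and 198 (0.91%) had an unadjusted p under 0.05 by limma. That contrast rests on 5 ad libitum and 4 control arrays, several with skeletal muscle transcripts. The mean over the tested skeletal muscle genes was 13.24 and 14.46 in control dogs 1 and 3. It was 11.75, 13.94 and 9.83 in ad libitum dogs 5, 7 and 8, and below 7 in the other dogs. The change of the difference from week 0 to the pooled weeks was then tested directly, and no probe set passed (0%; 566, or 2.6%, unadjusted). Of the 100 probe sets, 68 had an unadjusted p under 0.05 in that test. The pooled difference thus passed in genes for which the change from week 0 did not. AZGP1 changed by 4.88 (SE 0.950, adjusted p = 0.319) and AGMO by -2.91 (SE 0.619, adjusted p = 0.320). Without the 2 mismatched week-8 arrays, 2 probe sets (0.00919%) passed: AZGP1 at 5.55 (SE 0.599, adjusted p = 1.76e-05) and AGMO at -3.25 (SE 0.549, adjusted p = 0.0297) at another of its probe sets. The AGMO probe set described above changed by -3.20 there and did not pass (adjusted p = 0.142), nor did GPLD1 at 2.65 (adjusted p = 0.220). For AZGP1 both omitted arrays were at background, so that fit left out its single low ad libitum value, whichever of the 2 came from dog 5.

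Some fitted differences at week 0, none past the threshold, had the sign of the pooled difference. GABBR2 differed by 1.38 (SE 0.790) and CLDN10 by 1.07 (SE 0.494) before feeding, and their changes from week 0 were 1.05 and 0.76. G6PC1 and PPARGC1A differed by -0.66 and -0.65. AGMO had the opposite sign before feeding, at 0.97 (SE 0.511). LEP, GPLD1 and AZGP1 had fitted differences of 0.06, 0.25 and 0.23 at week 0, but their raw means were slightly lower in ad libitum dogs. Those means were 8.90 in controls and 8.61 in ad libitum dogs for LEP, 5.56 and 5.41 for GPLD1, and 2.34 and 2.31 for AZGP1. For GABBR2, CLDN10, G6PC1, PPARGC1A and AGMO the raw and fitted signs were the same. Among the 52 genes, 18 of the 32 higher genes had a positive fitted difference at week 0, and 7 of the 20 lower genes a negative one. Over all tested probe sets, 47.7% had the same fitted sign at week 0 as in the pooled weeks.

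**Figure D3:**
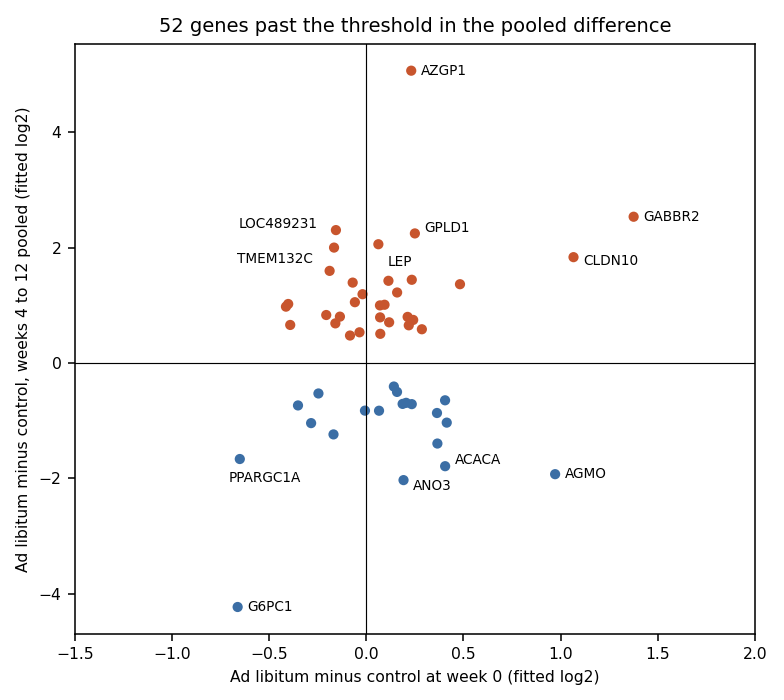
Each point is 1 of the 52 genes past the threshold, with its fitted difference at week 0 on the horizontal axis and its pooled difference over weeks 4 to 12 on the vertical axis, both ad libitum minus control in log2 units. Most genes lie near 0 at week 0, while GABBR2, CLDN10 and AGMO are displaced to the right.

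At week 24, a sampling time outside the pooled weeks whose 9 arrays form a batch of their own, 30 of the 32 higher genes were still higher in ad libitum dogs. Of the 20 lower genes, 11 were still lower. Over all tested probe sets 59.6% kept the sign of the pooled difference. The same 9 dogs gave both values, so this is not a separate experiment. The week 24 differences are of raw group means, not fitted values. Actin 3′ minus 5′ values, which describe RNA integrity, ran from 3.18 to 5.86 in controls and 2.37 to 4.47 in ad libitum dogs at week 24. Skeletal muscle means were 11.27 and 10.56 in control dogs 3 and 4, and at most 7.44 in ad libitum dogs. TRPV2 and MATN2 were higher at week 24 by less than 1 log2 unit, at 0.78 and 0.72, and LOC489231 by 2.94. ACACA turned to 0.73 and PPARGC1A to 1.20, both with the ad libitum dogs above. The 2 higher genes that turned were AZGP1 at -0.81, with control dog 4 at 5.71, and TM4SF1 at -0.19.

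The gene lists place these genes among their neighbours in each pathway. A list is described at 1 probe set per gene, the brightest, and over all 8811 genes 25 were called higher and 16 lower (0.465%). Of the 39 lists, 32 had no member called. Lipolysis and its control had the lowest median among the lists of 7 or more genes, -0.51, with 3 of 9 genes positive and none called. Its PRKAR2B, a regulatory subunit of protein kinase A, differed by -1.13 (adjusted p = 0.0736). NPR3, the clearance receptor of natriuretic peptides, differed by 1.28 and NPR1, their signalling receptor, by -0.51, both short of the threshold.

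Fatty acid synthesis had a median of 0.20 and no call among 20 genes, with ELOVL6, a fatty acid elongase, at 3.62 (adjusted p = 0.0827) and THRSP, a lipogenic regulator, at -0.94. Insulin signalling had a median of -0.05 over 18 genes with PDK4 called lower. Cholesterol synthesis had a median of 0.07 over 14 genes, and DHCR7, its last enzyme, differed by 1.17 (adjusted p = 0.0794). Fatty acid oxidation had a median of -0.13 with 5 of 19 genes positive, and the citric acid cycle -0.15 with 3 of 21. Oxidative phosphorylation had a median of -0.10 with 6 of 36 genes positive. Proteasome genes had a median of 0.15 with 24 of 27 positive. None of the genes in these last 4 lists was called, so the shifts are descriptions of small differences that share a sign.

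No member of the macrophage, cytokine or complement lists passed at its brightest probe set. The 22 macrophage genes had a median of 0.42 with 19 positive and none called. CD68, a macrophage protein, differed by 0.45 (adjusted p = 0.816). CCL2, which draws monocytes, ran from 5.37 to 9.87 in controls and from 7.06 to 12.90 in ad libitum dogs, and differed by 1.11 (SE 0.543, adjusted p = 0.483). The 24 cytokines, chemokines and adhesion molecules had a median of 0.29 and the 16 complement genes one of 0.16, with no call in either.

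**Figure D4:**
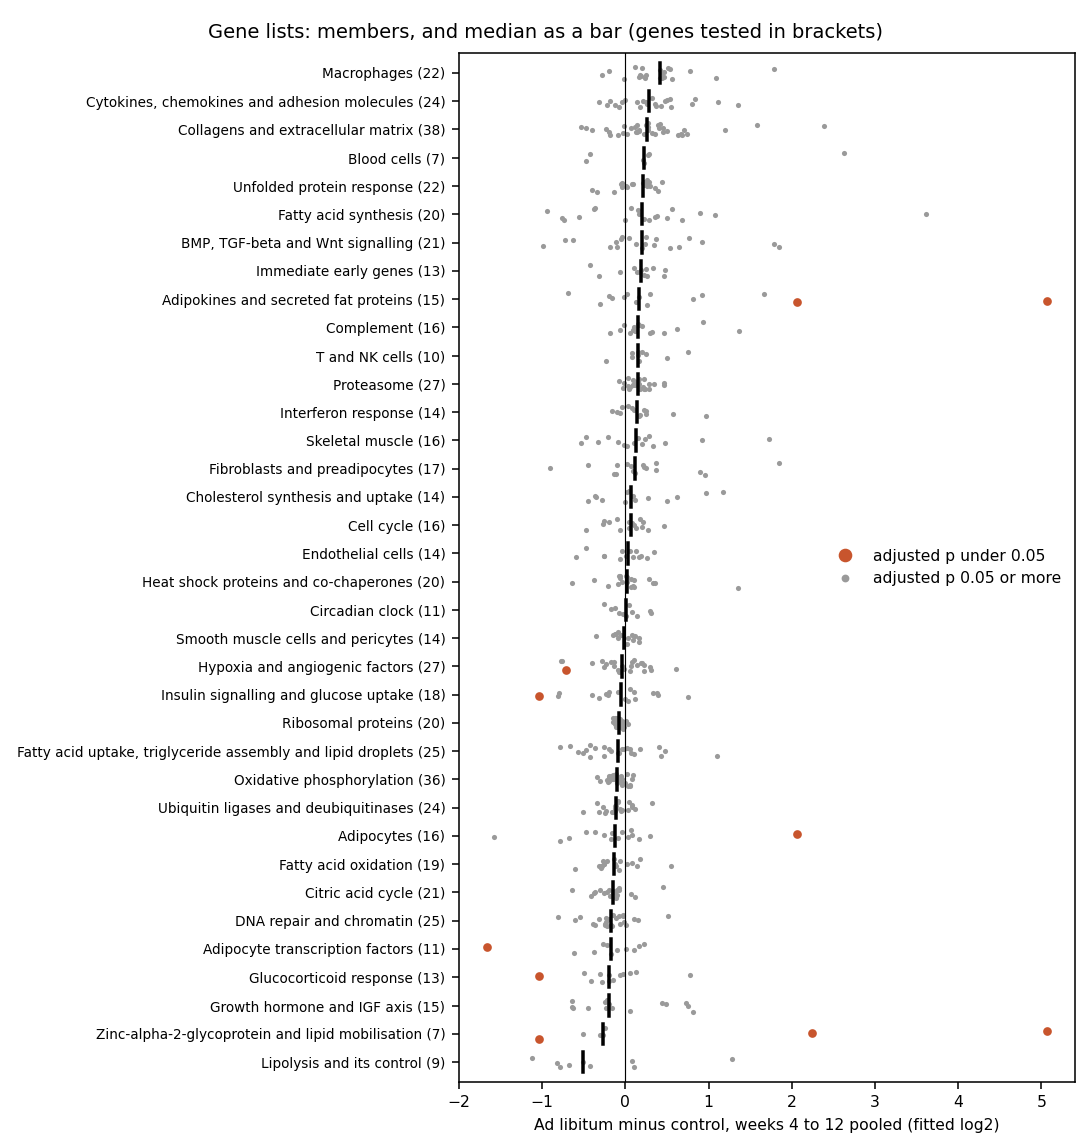
Fitted difference, ad libitum minus control in log2 units, of each member of the gene lists with 7 or more tested genes, with the list median as a black bar and members past the threshold in orange. Medians run from -0.51 for lipolysis to 0.42 for macrophages, and the plotted lists with more than 1 called member are zinc-alpha-2-glycoprotein and lipid mobilisation, with 3 of 7, and adipokines, with 2 of 15.

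Markers of other tissues were read on the same arrays. Of 19 epithelium and mammary genes on the array, 4 were above the filter: KRT7, CLDN4, LTF and EPCAM. Their mean was 6.49 ± 0.19 (SD, n = 4) in control dogs, between 5.29 and 7.47 by array, and 7.28 ± 0.20 (SD, n = 5) in ad libitum dogs, between 6.35 and 7.91. LTF, lactoferrin, differed by 2.63 and CLDN4, a claudin, by 1.57, while EPCAM, the epithelial adhesion molecule, differed by -2.03, none past the threshold. The week-24 array of control dog 4, at 5.71 in AZGP1, had a mean of 8.46 over the 4 epithelium genes and was at 11.49 in CLDN10. Over the skeletal muscle genes the mean of that array was 10.56. The other week-24 control arrays had epithelium means of 4.83 to 5.86 and CLDN10 values of 3.25 to 3.46. Whether epithelium had a part in the AZGP1 or CLDN10 differences was not tested. Of the 27 arrays, 5 had a mean above 7 over the 16 tested skeletal muscle genes, 2 of control and 3 of ad libitum dogs. They are called here muscle-bearing. Control dog 4 was at 14.08 at week 8 and control dog 9 at 7.01 at week 4. Ad libitum dog 7 was at 11.56 and 9.44 at weeks 8 and 12, and ad libitum dog 6 at 7.29 at week 4. The arrays at 7.01 and 7.29 were barely above some that were kept, such as ad libitum dog 5 at week 4, at 6.97. The dog means of those muscle genes were 7.14 ± 1.33 (SD, n = 4) in controls and 7.18 ± 1.15 (SD, n = 5) in ad libitum dogs. Without those 5 arrays 6 probe sets passed, all higher, and whether muscle or the loss of arrays lowered the count was not tested. AZGP1 then differed by 4.95 (adjusted p = 0.0154) and GPLD1 by 2.36 (adjusted p = 0.0233), and they were the 2 of the 27 named genes still past the threshold. Among the genes whose call was lost, LEP differed by 2.06, AGMO by -1.92, ACACA by -1.80 and PDK4 by -1.07, close to their values on all 27 arrays. Others moved more, with PPARGC1A going from -1.66 to -1.40 and GABBR2 from 2.54 to 2.86.

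A pair of array controls was used to describe RNA integrity, and neither differed between the groups past the threshold after adjustment. The actin 3′ end minus its 5′ end, which grows as RNA degrades, was 2.45 ± 0.08 (SD, n = 4) in control dogs and 1.99 ± 0.26 (SD, n = 5) in ad libitum dogs, a difference of -0.45 (2-sided exact permutation p = 0.0317, 0.0635 after adjustment for 2 tests). The same measure of GAPDH differed by 0.09 (exact permutation p = 0.365). Neither test had a batch term. Over the pooled weeks the actin value ran from 2.11 to 3.12 in batch 1, 2.56 to 3.45 in batch 2 and 1.35 to 1.93 in batch 3. It ran from 1.40 to 2.65 in batch 4 and 1.77 to 2.29 in batch 5. Batch 2 held 3 control arrays and 1 ad libitum array, and batch 4 held 2 and 4. Whether batch had a part in the actin difference was not tested. With the actin value as a covariate 1 probe set passed, AZGP1, at 5.02 (adjusted p = 0.00179). Among the genes whose call was lost, GPLD1 then differed by 2.29, PSAT1 by -1.51, AGMO by -1.99 and G6PC1 by -4.36, each close to its value without the covariate.

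The count of calls moved with single dogs. It was 9 without control dog 1, 79 without ad libitum dog 2, 9 without control dog 3, 132 without control dog 4 and 255 without ad libitum dog 5. It was 10, 33 and 6 without ad libitum dogs 6, 7 and 8, and 34 without control dog 9. AZGP1, SLC46A2 and GPLD1 passed in each of these 9 fits, and the other 24 named genes missed the threshold in at least 1. The signs of the 100 probe sets were the same in all 9. In a 2-sided exact permutation test of the dog means over the 9 dogs, 18 of the 27 named genes had p = 0.00794, the smallest the design allows. The highest of the 27 was p = 0.0476 by the same exact test, and the arrays are those that chose the genes. Treating each dog's mean as 1 value, with no batch term, left 2 probe sets past the threshold, and AZGP1 was the 1 of the 27 named genes among them (adjusted p = 0.0247).

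Leaving out the 2 mismatched week-8 arrays brought further genes past the threshold, named here after their values were seen. On the remaining 25 arrays, 201 genes were higher and 224 lower. Of the 808 probe sets, 513 had dog means that did not overlap, against 1228 of all 21758 tested (5.64%). As before, this describes the selection and is not support for it. LOX, which crosslinks collagen, ran from 4.15 to 7.21 in controls and from 6.11 to 10.14 in ad libitum dogs, a difference of 3.20 (SE 0.364, adjusted p = 1.78e-04). As labelled, LOX differed by 2.38 (adjusted p = 0.0780). LAMC1, GRB10, IGF1 and SEMA3C, named below, had limma adjusted p of 0.541, 0.445, 0.284 and 0.500 as labelled. On the 25 arrays, dog means overlapped for LAMC1, NPR3, GRB10, DKK2, SFRP1 and SEMA3C, and not for the other genes named here and below. None of the genes named here and below from this fit passed in the fit without muscle-bearing arrays. That fit kept the 2 mismatched week-8 arrays, with which most of these genes had not passed as labelled either. No fit left out both sets of arrays, so a dependence on muscle was not tested.

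Of the 38 matrix genes 5 now passed (13.2%, against 3.94% over all genes at their brightest probe set), all higher: COL4A1, NID1, LAMC1, LOX and FMOD. NID1 and LAMC1, both of basement membranes, were higher by 0.89 and 0.66. In fatty acid synthesis ELOVL6 was higher by 4.88 (SE 0.713), from a control median of 3.52 that lies near background. ME1 and PGD, which supply NADPH, were higher by 1.33 and 0.44. None of the 20 genes of that list was called lower at its brightest probe set, though 14 had a positive difference and the others did not, and ACACA was lower, at -2.15 at the probe set described above.

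On the side of lipid release, PRKAR2B was lower, at -1.37 and NPR1 at -0.62, and NPR3 was higher by 1.65 in the same fit. HCAR2, the receptor through which niacin and ketone bodies restrain lipolysis, was lower, at -2.84 (SE 0.525). Of 18 insulin signalling genes, TXNIP, PDK4 and GRB10 were lower, at -0.37, -0.91 and -1.27. TXNIP binds thioredoxin and limits glucose uptake, and GRB10 is an adaptor that restrains the insulin receptor. IGF1 was higher by 1.14. ID1 and ID3, inhibitors of helix-loop-helix factors and targets of BMP signals, were lower, at -1.46 and -0.99. DKK2 and SFRP1, secreted Wnt modulators, were higher by 2.34 and 0.80.

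Other large differences in that fit were PCSK1, a prohormone convertase, at 3.11, SEMA3C, a secreted semaphorin, at 3.55, and ASIP, the agouti signalling protein, at 2.94. SESN2, a stress-induced sestrin, differed by -2.85, with all ad libitum arrays at 2.74 or below and so near background. Oxidative phosphorylation, fatty acid oxidation and macrophage lists still had no call (0 of 36, 19 and 22 genes). Of the 4 epithelium genes, CLDN4 and LTF were now higher, by 1.87 and 3.42, and EPCAM lower, at -2.37. The fitted week 0 differences were 1.08 for CLDN4, 1.38 for ASIP and 0.56 for IGF1, while EPCAM had the opposite sign, at 2.50. Their changes from week 0 were 0.78, 1.55, 0.56 and -4.63, none past the threshold. Of the 808 probe sets, 339 had a fitted week 0 difference of the same sign.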

How the data were processed

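The values the authors deposited are GCRMA expression per probe set, read here as log2 from their range of 0.42 to 17.51. Per the submitters' processing notes, GCRMA made these values. Its version, the log base and any batch correction were not given in the sources used here. Probe sets above log2 4 on 4 or more of the 27 arrays were tested, 21758 of 42924. Array medians over all probe sets ran from 3.59 to 3.82. Symbols came from the platform annotation, and 15406 of the tested ones carried a gene ID that RefSeq lists.

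The pooled difference was fitted in R 4.3.3 with limma 3.58.1, with week and batch as terms and the dog as block (correlation 0.031, 19 residual degrees of freedom). The labels' animal id pairs the weeks, since each dog gave 1 array a week. Adjusted p-values are Benjamini-Hochberg over all tested probe sets, with a threshold of 0.05. The change from week 0 used 36 arrays. Dog-level tests are exact over the 126 splits of 9 dogs (smallest p 0.00794). The fits were tested on simulated data. Alternatives changed the block, batch and week terms, filter, scaling and covariates, or left out dogs, weeks or arrays. No sequence or coordinate was used here.

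Named genes are up to 12 of each sign past the threshold by size, called members of 39 gene lists or the member with the smallest p, and 9 genes of fat biology. Members, lists and rules were chosen with earlier results of these data known. The lists were also described without the 2 mismatched week-8 arrays, and without muscle-bearing arrays, which was added after seeing the data.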

Additional observations from a re-analysis of the deposited data

Results flagged for a closer look

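In 7 of 128 groups of dog means over weeks 4 to 12 (5.47%), 1 dog stood far from the rest of its group; chance alone gives about 1 in 20. In LEP, leptin, this held on both sides. Control dog 3 was at 8.05 with the other controls between 10.31 and 10.73, and ad libitum dog 5 was at 10.93 with the others between 12.07 and 12.48. The mean of dog 5 includes its week-8 array, whose profile matched dog 9. In IGFALS, which carries IGF in plasma, control dog 1 was at 4.31, against 4.77 to 4.85. In LTF, lactoferrin, control dog 1 was at 6.12, against 4.55 to 4.78. In S100A4, a calcium-binding protein of fibroblasts and leukocytes, ad libitum dog 2 was at 12.78, against 13.57 to 13.83. In CD3G, a chain of the T cell receptor complex, control dog 9 was at 3.25, against 2.03 to 2.05. Its week-12 array was at 5.65 and its other 2 at 2.04 and 2.05. In CCL2, control dog 9 was at 7.59, against 8.10 to 8.16, and its mean includes the week-8 array that matched dog 5. The causes were not tested.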

How the results depend on the processing

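The pooled difference passed in 100 probe sets as labelled and in 142 with no replicate block. The count moved to 2 on dog means, 53 on dog means after batch and week effects were subtracted, 158 with no batch term (48.7% higher, against 58%) and 307 with all 45 arrays in the fit (45.9% higher). It was 808 without the 2 mismatched week-8 arrays, 6 without muscle-bearing arrays, 0 without week 4 (2230 at an unadjusted p under 0.05 by limma), 1 without week 12 and 1 with the actin covariate. Without each dog in turn it ran from 6 to 255. The other 8 settings gave 69 to 125. The 100 probe sets kept their sign wherever tested. The change from week 0 (0 as labelled) passed 3 with all 45 arrays, 2 with no batch term, 2 without the 2 mismatched week-8 arrays, 22 without week 8 and 0 to 1 without each dog. The interaction passed 496 without muscle-bearing arrays and 0 to 3989 without each dog. The week 0 count was 0 throughout. Signs turned for S100B without week 12 (0.55), for PPARG without week 12 (-0.028) and for LPL without control dog 1 (0.023), none past the threshold. Without each dog in turn PPARG ran from -0.073, without control dog 3, to 0.34, and LPL from -0.32 to 0.023. Over the 27 named genes past the threshold, 306 of 728 pairs of gene and alternative missed it and 0 reversed. The causes were not tested.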
